A study of Mus musculus with 6 samples.

Results

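The BCL2 family of proteins was examined at the RNA level in bone marrow neutrophils of tumor-bearing mice through 10 genes chosen by name, 5 for survival proteins and 5 for death proteins. The survival proteins were Mcl1, Bcl2, Bcl2l1, Bcl2a1b and Bcl2a1d. The death proteins were the pore-forming effectors Bax and Bak1 and the BH3-only proteins Bcl2l11, Bid and Bbc3. Of the 10 genes, 9 had an identifier that matched among the 38887 in the count table, and these 9 were among the 12259 genes with enough reads to be tested. Bcl2a1d had no matched identifier and was not analysed here.

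Cells positive for Ly6G, a surface protein of mouse neutrophils, were taken from bone marrow with magnetic beads to a stated purity of over 95%, and their total RNA was sequenced. The 3 groups were naive mice, mice 1 week after LL2 cells were given and mice 3 weeks after, each with 2 libraries labelled as replicate mice. LL2 is a Lewis lung carcinoma line, here carrying luciferase and injected intravenously, which forms lesions in the lung. All mice were C57BL/6 as far as the study's methods give it, and their age at collection is not given in the sources used here. In whole-population RNA, fewer cells of a type and less RNA per cell cannot be told apart.

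BCL2-family proteins decide whether the outer membrane of the mitochondrion stays intact. Survival members bind and hold back the effectors Bax and Bak1, which otherwise form pores and release cytochrome c. BH3-only proteins carry death signals, either by occupying the survival members or by activating the effectors directly. Neutrophils are short-lived cells, and Mcl1, a protein with rapid turnover, is the survival member they are best known to depend on.

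The libraries held between 11994158 and 14127919 counts, so that 3 counts corresponded to 0.200 to 0.246 CPM, the unit of level used here, in which counts are scaled to a common library size by the TMM method. The 12 neutrophil marker genes summed to between 285150 and 349013 CPM in every library, mostly from S100a8 and S100a9, although Ly6g itself had few counts. Single neutrophil markers did shift: at 3 weeks against naive 2 of the 12 rose (Cxcr2 by log2 0.70 and Retnlg by 0.44) and 3 fell (Camp by -1.04, Ltf by -0.64 and Ngp by -0.51), and against 1 week 5 rose (Cxcr2 by 1.07) and 3 fell (Camp by -1.18). At 1 week against naive only Retnlg was called (log2 0.58). Genes of B-lineage cells summed to 58.0 to 73.1 CPM in naive, 57.2 to 71.8 at 1 week and 16.8 to 18.8 at 3 weeks, and erythroid genes to 571 CPM in week 3 replicate 2 against 1202 to 1510 in the other libraries. Of 10 genes of neutrophil precursors, 5 rose at 3 weeks against naive (Elane, Mpo, Prtn3, Ctsg and Ms4a3) and 3 fell (the granule gene Fcnb by -1.12 and the cell cycle genes Mki67 and Top2a). Against 1 week 6 rose, with Kit in addition, and the same 3 fell. Cd34 was called in none of the comparisons. The part of these shifts in the values given here was not tested.

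The threshold for a call was an adjusted p under 0.05 in the quasi-likelihood test of edgeR, with Benjamini-Hochberg adjustment over all 12259 genes tested. At 1 week against naive, 0 of the 9 measured BCL2-family genes were called, where 7.99% of all tested genes were (4.23% higher and 3.76% lower). At an unadjusted p under 0.05 there were 3 (Bcl2l1, Bcl2a1b and Bcl2l11), and DESeq2 called 0 after adjustment and 2 before it. At 3 weeks against naive, 3 of 9 were called, with 21.4% of all genes called. Mcl1 and Bcl2l1 were higher (12% of all genes were called higher) and Bcl2a1b was lower (9.42%). At 3 weeks against 1 week, 5 of 9 were called, with 22.5% of all genes called. Mcl1, Bcl2l1, Bak1 and Bcl2l11 were higher (12.9% of all genes) and Bcl2a1b was lower (9.57%). Each pair of these comparisons shares the libraries of 1 group, so the 3 comparisons are not independent of each other.

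The median log2 fold change of the 9 genes was -0.18 at 1 week against naive, -0.03 at 3 weeks against naive and 0.14 at 3 weeks against 1 week. Over all tested genes it was 0.01, 0.03 and -0.02. The libraries of the groups compared did not overlap for 7, 5 and 7 of the 9 genes, beside 53.2%, 59.6% and 63.8% of all tested genes. Bax counts among the 7 in both comparisons with 1 week, and among the 9 in each median. It passed the filter on low counts only through the 1-week libraries, which favours such a separation.

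**Figure D1:**
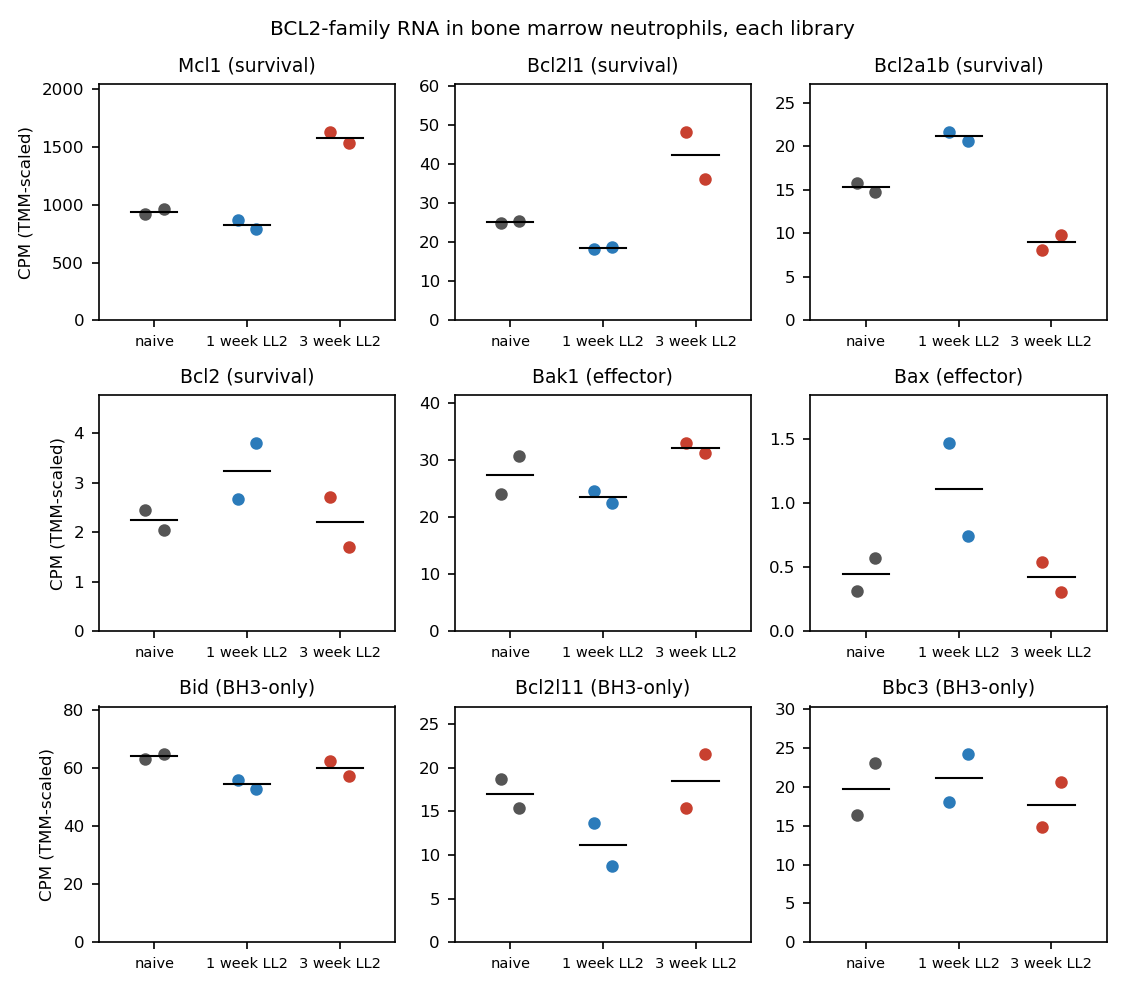
Each point is the TMM-scaled CPM of 1 library and each bar the mean of the 2 libraries of a group, with a separate linear axis from 0 for each of the 9 measured genes. Mcl1 lies between 1532 and 1633 CPM in the 3-week libraries and between 787 and 962 in the others, while Bcl2a1b is highest at 1 week and lowest at 3 weeks.

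Mcl1 (ENSMUSG00000038612, chromosome 3, 95658788 to 95663176, plus strand, GRCm38) was by far the most abundant of these transcripts and rose at 3 weeks. Its levels were 922 and 962 CPM in the naive libraries, 871 and 787 CPM at 1 week and 1633 and 1532 CPM at 3 weeks. Both 3-week libraries lay above all 4 others, and both 1-week libraries lay below the naive ones. The increase at 3 weeks was 1.68-fold over naive (log2 0.75, SE 0.111, 95% interval 0.51 to 0.99, adjusted p = 3.84e-04) and 1.91-fold over 1 week (log2 0.93, SE 0.111, interval 0.69 to 1.17, adjusted p = 7.21e-05). The difference at 1 week did not pass the test (log2 -0.18, interval -0.42 to 0.05, adjusted p = 0.348). The first 2 calls remained without any single library and under DESeq2, but neither reaches a 5-fold change. Neutrophil markers also shifted at 3 weeks against naive, 2 of the 12 upward and 3 downward, among them Cxcr2 (log2 0.70) and Camp (-1.04). The part of these shifts in the Mcl1 and Bcl2l1 values was not tested.

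The 250 bases before the RefSeq start of Mcl1 are shown because it is the transcript that carried most of the family's RNA and rose at 3 weeks. They lie at chr3:95658471-95658720 on the plus strand of GRCm38.p6, and capitals mark the only match to the GC box (GGGCGG, here read on the opposite strand), 20 bases before the start.
Mcl1: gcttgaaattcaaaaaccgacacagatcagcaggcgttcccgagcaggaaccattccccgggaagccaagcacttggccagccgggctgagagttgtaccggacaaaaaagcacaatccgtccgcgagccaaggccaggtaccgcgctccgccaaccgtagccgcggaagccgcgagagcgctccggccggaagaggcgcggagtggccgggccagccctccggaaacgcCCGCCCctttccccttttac
Searched on both strands, the GC box occurred before 11 of the 15 RefSeq starts of the 10 genes and in 32.7% of 32851 such windows. Bcl2l1, which rose with Mcl1, and Bak1 held none. The STAT letters TTCNNNGAA occurred before 0 of the 15 starts (7.02% of all windows), and the cyclic AMP response letters TGACGTCA before 0 (1.55%). These motifs do not overlap in their letters, and a match or its absence describes only these windows.

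Bcl2l1 (ENSMUSG00000007659, chromosome 2, 152780668 to 152831728, minus strand), whose main product is the survival protein Bcl-xL, changed in the same direction at 3 weeks from a much lower level. It was at 25.1 and 25.5 CPM in naive, 18.2 and 18.9 CPM at 1 week and 48.4 and 36.4 CPM at 3 weeks. The 3 groups did not overlap, and the 3-week libraries lay farther apart than those of the other groups. The increase was 1.68-fold over naive (log2 0.75, SE 0.153, interval 0.42 to 1.08, adjusted p = 0.00377) and 2.29-fold over 1 week (log2 1.19, SE 0.155, interval 0.86 to 1.53, adjusted p = 1.40e-04). At 1 week the difference from naive was -0.45 on the log2 scale with an interval of -0.79 to -0.11, and the adjusted p was 0.102. The count table gives 1 value per gene, so the long and short forms of this transcript, which differ in their effect on survival, were not separated.

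Bcl2a1b (ENSMUSG00000089929, chromosome 9, 89199209 to 89207827, plus strand) encodes A1, a survival protein of blood cells, and was the only measured survival gene that fell at 3 weeks. Its levels were 15.8 and 14.7 CPM in naive, 21.7 and 20.7 CPM at 1 week and 8.14 and 9.84 CPM at 3 weeks. Again the groups did not overlap, but their order was the reverse of that for Bcl2l1. At 3 weeks the gene was 1.70-fold lower than in naive (log2 -0.76, SE 0.170, interval -1.13 to -0.40, adjusted p = 0.00633) and 2.35-fold lower than at 1 week (log2 -1.23, SE 0.166, interval -1.59 to -0.88, adjusted p = 1.78e-04). Without week 3 replicate 1 the difference from naive was -0.62 with an adjusted p of 0.0584, so this call rests on that library. The higher level at 1 week did not pass the test (log2 0.47, interval 0.13 to 0.82, adjusted p = 0.09).

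Genes of some other blood cells moved over the same groups as Bcl2a1b. Of 12 B-lineage genes, 12 fell at 3 weeks against naive and 11 against 1 week, with 0 called at 1 week against naive, and Rag1 had 0 counts in both 3-week libraries. Of 8 eosinophil, basophil and mast cell genes, 5 had enough reads to be tested. Their 8 levels summed to 37.2 to 40.6 CPM in naive, 81.4 to 90.6 CPM at 1 week and 19.6 to 28.5 CPM at 3 weeks. At 1 week 4 of the 5 rose, and at 3 weeks 3 fell against naive. Against 1 week, 4 fell and Siglecf rose. Ms4a2, a subunit of the IgE receptor, had at most 3 counts in any library and 0 in both naive libraries, and Epx had between 0 and 8. The 8 T and NK cell genes, of which 3 could be tested, summed to 13.8 to 15.0 CPM in naive. Their sum was 16.2 to 24.2 CPM at 1 week and 8.61 to 11.2 CPM at 3 weeks. The sum of 10 monocyte and macrophage genes was not higher at 1 week. It was 445 to 456 CPM in naive, 362 to 392 CPM at 1 week and 341 to 495 CPM at 3 weeks. The part of any of these cells in the Bcl2a1b values was not tested.

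**Figure D2:**
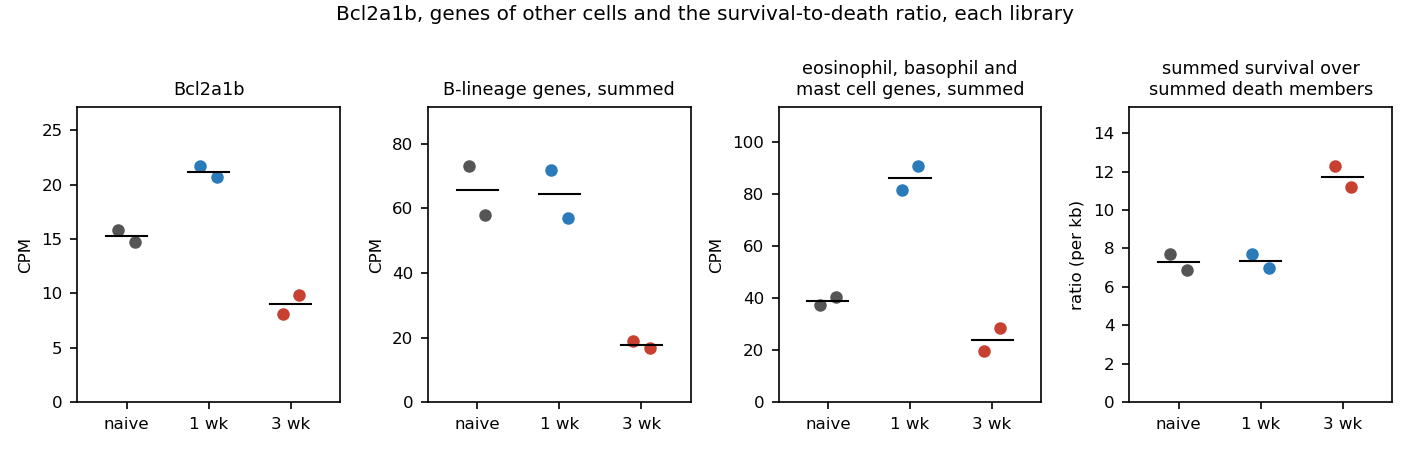
Points are single libraries and bars the means of 2, on linear axes from 0. From left to right the panels show Bcl2a1b in CPM, the summed CPM of 12 B-lineage genes, the summed CPM of 8 eosinophil, basophil and mast cell genes, and the summed CPM per kb of the survival genes over that of the death genes. Bcl2a1b and the eosinophil, basophil and mast cell sum are both highest at 1 week and lowest at 3 weeks. The ratio, which leaves out other family genes such as Bad and Pmaip1, is above 11 only in the 3-week libraries.

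Bcl2a1b is a member of a cluster of near-identical genes on mouse chromosome 9, which bears on which copy its reads came from. Its coding sequence of 516 bases without the stop differs from that of Bcl2a1d at 6 bases (98.8% identity) and from that of Bcl2a1a at 11 (97.9%), and all 3 share an unbroken run of 217 bases. Of the 743 distinct windows of 75 bases in Bcl2a1b transcripts, 508 (68.4%) also occur in transcripts of other genes, and of the 768 windows of 50 bases, 608 (79.2%) do. These other genes may include Gm29094, a protein-coding gene on the same strand that shares 8449 bases of the Bcl2a1b locus. Its part in the shared windows was not separated from that of the near-identical copies. The labels give reads of 75 bases and the study's methods reads of up to 50. Bcl2a1a, like Bcl2a1d, had no matched identifier, and Bcl2a1c was at 0 counts in all 6 libraries. The value given for Bcl2a1b is therefore uncertain as a measure of that copy alone.

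The start of the coding sequence of each copy shows how little separates them. Capitals mark the 6 positions, of coding bases 1 to 75, at which the 3 copies are not all alike. The stretches lie in GRCm38 at chr9:89199360-89199434 (plus strand), chr9:88731645-88731719 (minus strand) and chr9:88957051-88957125 (plus strand), in that order.
Bcl2a1b: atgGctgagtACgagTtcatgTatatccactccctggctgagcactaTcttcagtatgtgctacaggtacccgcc
Bcl2a1d: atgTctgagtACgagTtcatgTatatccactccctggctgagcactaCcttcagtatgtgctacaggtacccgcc
Bcl2a1a: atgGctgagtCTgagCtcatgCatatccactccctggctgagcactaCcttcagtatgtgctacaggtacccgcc
Within this stretch Bcl2a1d differs from Bcl2a1b at 2 bases and Bcl2a1a at 5. Of the other measured genes, Bax shared 6.84% of its 75-base windows with other genes, and the remaining 7 shared 0.

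Bcl2 (ENSMUSG00000057329, chromosome 1, 106538178 to 106714274, minus strand), the founding survival gene of the family, was near the limit of what could be counted. It had 31 and 25 counts in naive, 40 and 51 at 1 week and 35 and 22 at 3 weeks, or 1.69 to 3.80 CPM. The 1-week and 3-week libraries overlapped, as did the naive and 3-week libraries. None of the comparisons passed the test. The interval of the log2 fold change ran from -0.30 to 1.34 at 1 week against naive, from -0.88 to 0.82 at 3 weeks against naive and from -1.37 to 0.27 at 3 weeks against 1 week. The intervals leave room for changes of more than 1.5-fold in each comparison.

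Of the effectors, Bak1 (ENSMUSG00000057789, chromosome 17, 27019810 to 27029009, minus strand) was the more abundant. It was at 24.1 and 30.8 CPM in naive, 24.6 and 22.6 CPM at 1 week and 33.1 and 31.4 CPM at 3 weeks. The 3-week libraries were the highest, and naive replicate 1 lay within the 1-week values. Bak1 was 1.36-fold higher at 3 weeks than at 1 week (log2 0.45, SE 0.149, interval 0.13 to 0.77, adjusted p = 0.0464). This call was lost without week 1 replicate 1 (adjusted p = 0.132), week 1 replicate 2 (0.274), week 3 replicate 1 (0.145) or week 3 replicate 2 (0.0815), and under DESeq2 (0.0973). The difference was 0.23 at 3 weeks against naive (interval -0.09 to 0.55) and -0.22 at 1 week against naive (-0.54 to 0.11). The gene lies wholly within Ggnbp1 on the opposite strand, which had 87 to 203 counts. Whether reads were counted by strand is not given in the sources used here, and without strand the reads of such a pair cannot be told apart.

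Bax (ENSMUSG00000003873, chromosome 7, 45461697 to 45466898, minus strand), the other effector, had only 4 and 7 counts in naive, 22 and 10 at 1 week and 7 and 4 at 3 weeks. It entered the test only through the 1-week libraries, at 1.47 and 0.746 CPM, which were the only ones to reach the filter on low counts (applied before TMM scaling). All 3 comparisons missed the threshold, with log2 differences of 1.31 (interval -0.16 to 2.79, adjusted p = 0.273), -0.06 (-1.73 to 1.61, adjusted p = 0.969) and -1.37 (-2.84 to 0.10, adjusted p = 0.172) in the order given above. These intervals are the widest among the 9 genes.

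Of the BH3-only genes, Bcl2l11 (ENSMUSG00000027381, chromosome 2, 128126038 to 128162547, plus strand), which encodes Bim, an activator of the effectors and a ligand of all survival members, was called in a single comparison. It was at 18.7 and 15.4 CPM in naive, 13.6 and 8.80 CPM at 1 week and 15.4 and 21.6 CPM at 3 weeks. Both 1-week libraries were below all 4 others. The 3-week level was 1.64-fold above that at 1 week (log2 0.72, SE 0.224, lower end of the interval 0.23, adjusted p = 0.0354). The call was lost without naive replicate 1 (adjusted p = 0.0598), without week 1 replicate 2 (log2 0.41, adjusted p = 0.309) or without week 3 replicate 2 (log2 0.46, adjusted p = 0.240). DESeq2 gave 0.0534. Against naive the difference was -0.60 at 1 week (interval -1.09 to -0.11, adjusted p = 0.124). At 3 weeks against naive it was 0.12 (interval -0.36 to 0.59), and it turned to -0.03 when libraries were scaled by their totals.

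Bid (ENSMUSG00000004446, chromosome 6, 120891930 to 120916853, minus strand), which is activated by caspase-8 and links death receptors to mitochondria, passed no test and kept to narrow intervals. It was at 63.4 and 65.1 CPM in naive, 55.9 and 53.0 CPM at 1 week and 62.5 and 57.5 CPM at 3 weeks. The groups did not overlap, but their differences were small. The interval of the log2 fold change was -0.49 to 0.02 at 1 week against naive, -0.35 to 0.16 at 3 weeks against naive and -0.12 to 0.40 at 3 weeks against 1 week. The last difference turned from 0.14 to -0.06 with scaling by library totals. Bid shares 913 bases with Bcl2l13 on the opposite strand, which had 130 to 198 counts.

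Bbc3 (ENSMUSG00000002083, chromosome 7, 16308393 to 16318205, plus strand) encodes Puma, a target of p53. It was at 16.4 and 23.0 CPM in naive, 18.0 and 24.2 CPM at 1 week and 14.8 and 20.6 CPM at 3 weeks, and the 3 groups overlapped. The intervals were -0.35 to 0.55, -0.61 to 0.31 and -0.71 to 0.20 in the same order of comparisons, with adjusted p of 0.832, 0.671 and 0.426.

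**Figure D3:**
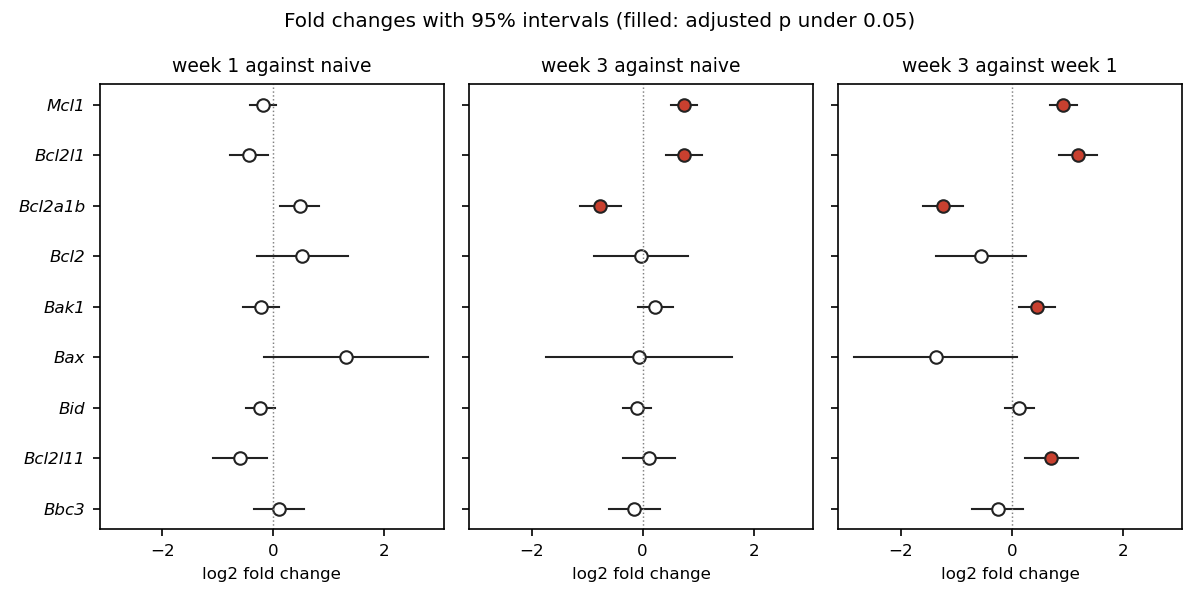
Points are log2 fold changes from edgeR and lines their 95% intervals, with a panel for each of the 3 comparisons and a row for each gene. Filled points have an adjusted p under 0.05. No point is filled at 1 week, and at 3 weeks Mcl1 and Bcl2l1 lie to the right of 0 and Bcl2a1b to the left in both panels, with much wider intervals for Bax and Bcl2.

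To set the genes against each other, levels were divided by exon length and are given as mean CPM per kb. In naive neutrophils Mcl1 was at 275.5 ± 8.17 (SD, n = 2), followed by Bcl2a1b at 18.7 ± 0.945 and Bid at 18.1 ± 0.338, whose libraries overlapped. Bak1 at 11.4 ± 1.95 and Bbc3 at 9.27 ± 2.20 also overlapped. Below them came Bcl2l1 at 5.51 ± 0.0577, Bcl2l11 at 2.12 ± 0.289, and Bax and Bcl2 at 0.282 ± 0.115 and 0.246 ± 0.0314, which overlapped. Over all libraries Mcl1 ranked 156 and Bcl2 10821 among the 12101 tested genes that had a length.

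At 1 week the order by mean CPM per kb was the same, except that Bbc3 (9.95 ± 2.07) stood above Bak1 (9.81 ± 0.597), with overlapping libraries. Bcl2a1b, at 25.9 ± 0.895, no longer overlapped Bid at 15.3 ± 0.579. At 3 weeks Mcl1 was at 463.0 ± 21.04, followed by Bid (16.9 ± 0.994) and Bak1 (13.4 ± 0.512). Bcl2a1b had moved to the fourth place at 11.0 ± 1.47, where it overlapped Bcl2l1 at 9.24 ± 1.85, which in turn overlapped Bbc3 at 8.34 ± 1.93. Bcl2l11, Bax and Bcl2 closed the order in all 3 groups. Length here counts all annotated exons, so genes with long or seldom used exons are placed lower.

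**Figure D4:**
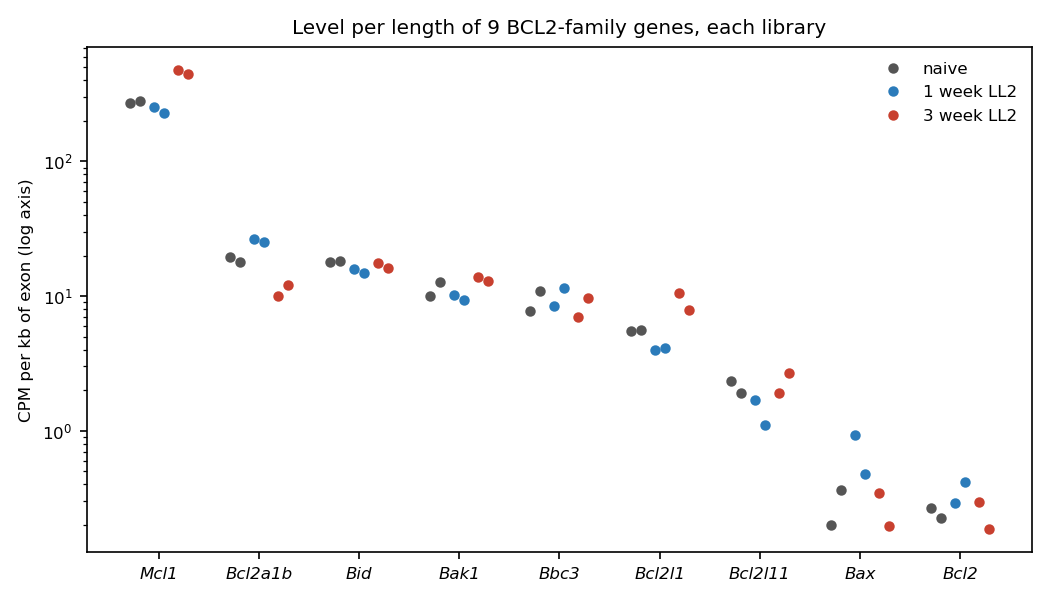
Each point is the TMM-scaled CPM per kb of exon of 1 library, on a log axis, for the 9 measured genes in the order of their mean over all libraries. Mcl1 stands above 230 in every library and the other 8 genes lie below 27, down to 0.185 for Bcl2 in week 3 replicate 2.

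Within each library, Mcl1 made up most of the summed level per length of the 4 measured survival genes. Its share was 91.5 and 92.2% in naive, 89.2 and 88.5% at 1 week and 95.8 and 95.7% at 3 weeks. That of Bcl2a1b was 6.57 and 5.91%, then 9.29 and 9.72%, then 2.00 and 2.57%. The sum of survival genes over the sum of death genes was 7.74 and 6.90 in naive, 7.70 and 6.97 at 1 week and 12.3 and 11.2 at 3 weeks, the 3-week libraries standing above the rest. Without Mcl1 the ratio was 0.659 and 0.538, then 0.831 and 0.799, then 0.513 and 0.482, with the 3-week libraries lowest. The death sum holds only the listed death genes and leaves out the BH3-only genes Bad and Pmaip1. Bad was at a mean of 24.9 CPM per kb in naive, 20.7 at 1 week and 34.6 at 3 weeks. Pmaip1 was at 8.65, 8.67 and 4.58 in the same order. The scale between libraries cancels in these ratios. They are ratios of RNA and are given as values per library. No test was run on them, and an exact permutation test of 2 against 2 libraries could not go below 0.33.

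Single pairs of death and survival genes gave a less even picture. The log2 ratio of Bcl2l11 to Mcl1 per length was -6.86 and -7.20 in naive, -7.23 and -7.71 at 1 week and -7.96 and -7.38 at 3 weeks. All 4 libraries of tumor-bearing mice were below the naive ones, week 1 replicate 1 only narrowly, while the 1-week and 3-week libraries overlapped. For Bax to Mcl1 the log2 ratio was -10.4 and -9.60 in naive, -8.10 and -8.93 at 1 week and -10.4 and -11.2 at 3 weeks. It was highest at 1 week, the only group in which Bax reached the filter on low counts. The log2 ratio of Bax to Bcl2 ran from -0.42 to 1.68 over all libraries without order, on few counts for both genes.

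The tested genes whose profile over the 6 libraries was closest to that of Mcl1 were Ptpn1, Klf13, Tlr4, Rab8b and Kdm7a. The measure was the root mean square difference of log2 CPM after each gene was centred on its own mean. It was 0.0534 for the tyrosine phosphatase Ptpn1, 0.0560 for the transcription factor Klf13, 0.0573 for the endotoxin receptor Tlr4, 0.0581 for the small GTPase Rab8b and 0.0655 for the histone demethylase Kdm7a. These 5 differed from naive by 0.71 to 0.75 on the log2 scale at 3 weeks and by -0.29 to -0.09 at 1 week.

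Beyond the 10 genes, 61 genes of the wider family and of the pathway above and below it were listed, of which 51 could be tested. At 1 week against naive 5 were called, at 3 weeks against naive 12 and at 3 weeks against 1 week 13. Of all tested genes, 7.99%, 21.4% and 22.5% were called in the same order. These shares also stand beside the counts of the separate lists below, which are not read as results about the pathway. Their median log2 fold changes were -0.02, 0.18 and 0.10, beside 0.01, 0.03 and -0.02 over all tested genes. With libraries scaled by their totals, the calls of Apaf1, Bad and Vdac1 against naive, of Bnip3 in both comparisons, of Diablo, Gsk3b and Usp9x at 3 weeks against 1 week and of Naip6 at 1 week were lost, at adjusted p of 0.0796 to 0.213.

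Of 16 further BCL2-family genes, 8 could be tested, and 0 were called at 1 week against naive. Bcl2l10 and Bcl2l14 had 0 counts in every library, and Bcl2l2, the survival gene for Bcl-w, had 2 to 8. At 3 weeks 2 rose and 1 fell, and they were the same 3 genes against naive and against 1 week. Pmaip1, which encodes the Mcl1-binding BH3-only protein Noxa, was at 25.2 and 22.1 CPM in naive, 23.0 and 24.4 CPM at 1 week and 10.01 and 15.0 CPM at 3 weeks. Both 3-week libraries were below the others. Pmaip1 fell by 0.92 on the log2 scale against naive (SE 0.187, adjusted p = 0.00358) and against 1 week (SE 0.186, adjusted p = 0.00323), and both calls remained without any single library. The B-lineage sum was also low in these 3-week libraries, at 16.8 to 18.8 CPM, and its part in the Pmaip1 values was not tested.

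Bad, a BH3-only gene whose product is held inactive by phosphorylation, was at 58.4 and 69.1 CPM in naive, 48.5 and 57.1 CPM at 1 week and 94.7 and 82.1 CPM at 3 weeks. The 3-week libraries were the highest. Bad shares 620 bases with Gpr137 on the opposite strand, which had 121 to 159 counts. Bad rose by log2 0.74 over 1 week (SE 0.138, adjusted p = 0.00182) and by 0.47 over naive (SE 0.137, adjusted p = 0.0263). The latter call was lost without naive replicate 1 or week 3 replicate 1 (adjusted p 0.157 to 0.238). Bnip3, a gene for a mitophagy receptor with a BH3-like stretch, was called at 3 weeks against naive (log2 0.75, adjusted p = 0.0491) and against 1 week (log2 0.79, adjusted p = 0.0359). Week 3 replicate 2, at 27.3 CPM, stood apart from the other libraries at 10.4 to 16.5 CPM. Without it the differences were 0.34 and 0.39, with adjusted p of 0.427 and 0.329, and the calls were also lost without either 1-week library or, against naive, without naive replicate 1 and under DESeq2 (0.0741).

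Of 24 genes in a list drawn up for steps at and after the mitochondrion, which also holds the Naip genes, 23 could be tested. At 1 week 1 rose and 2 fell, and at 3 weeks 3 rose and 2 fell against each of the other groups. The largest difference was in Casp6, which encodes an executioner caspase. It had 40 and 23 counts in naive, 20 and 39 at 1 week and 286 and 205 at 3 weeks. The 3-week libraries were well above the rest, at 22.2 and 15.8 CPM against 1.34 to 3.17 CPM. Casp6 was 7.47-fold higher than in naive (log2 2.90, SE 0.324, adjusted p = 4.77e-05) and 9.02-fold higher than at 1 week (log2 3.17, SE 0.328, adjusted p = 2.39e-05), and both calls remained without any single library.

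Dffa, the inhibitor of the caspase-activated DNase, rose at 1 week from 69.8 and 61.6 CPM to 116.4 and 123.1 CPM (log2 0.87, SE 0.124, adjusted p = 0.00175). It was lower again at 3 weeks, at 77.1 and 88.0 CPM (log2 -0.54 against 1 week, adjusted p = 0.00703), although this call was lost without week 1 replicate 2 or week 3 replicate 1 (adjusted p 0.0514 to 0.0816).

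Among the inhibitor of apoptosis genes, Birc5 (survivin, which also acts in cell division) fell at 3 weeks, from 132.9 and 116.8 CPM in naive to 75.2 and 75.8 CPM (log2 -0.73, SE 0.121, adjusted p = 9.34e-04). Against 1 week, at 100.4 and 112.9 CPM, it fell by 0.50 on the log2 scale (adjusted p = 0.00993), which was lost without week 1 replicate 2 or week 3 replicate 1 (0.0599 to 0.0906). The cell cycle genes Mki67 and Top2a fell in the same comparisons (log2 -0.73 and -1.33 against naive, -0.72 and -0.74 against 1 week). Birc3 (cIAP2) was at 33.1 and 32.3 CPM at 1 week and 46.1 and 58.5 CPM at 3 weeks, and rose by log2 0.68 (adjusted p = 0.00387). Calls were also made for Apaf1 (log2 0.40) and Vdac1 (0.45) at 3 weeks against naive, Diablo at 3 weeks against 1 week (0.51) and Naip6 at 1 week (-0.62). Apaf1 was lost without any of the 6 libraries, and Diablo without any except naive replicate 2. Vdac1 was lost without any except naive replicate 1, and Naip6 without either naive or either 1-week library. Under DESeq2 their adjusted p lay between 0.0793 and 0.123.

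Of 21 genes upstream of the family, 20 could be tested. At 1 week against naive 0 rose and 2 fell, at 3 weeks against naive 2 rose and 2 fell, and at 3 weeks against 1 week 5 rose and 0 fell. Tnfrsf1b, the gene for TNF receptor 2, was at 21.8 and 24.5 CPM in naive, 18.2 and 16.3 CPM at 1 week and 40.0 and 37.4 CPM at 3 weeks. The 3-week libraries stood above the rest, with log2 differences of 0.74 from naive (SE 0.140, adjusted p = 0.00215) and 1.16 from 1 week (SE 0.142, adjusted p = 8.38e-05). Ripk1, a kinase of the TNF receptor 1 complex, was at 30.6 and 33.2 CPM in naive, 19.3 and 16.0 CPM at 1 week and 38.9 and 43.4 CPM at 3 weeks. It fell by 0.85 on the log2 scale at 1 week (adjusted p = 0.00456, but 0.0584 without week 1 replicate 2) and was higher by 1.22 at 3 weeks than at 1 week (adjusted p = 7.28e-05). A pseudogene with 3 to 190 counts, Gm17084, lies within Ripk1 on the same strand, so Ripk1 reads are uncertain there. Ripk1 also shares 432 bases with Serpinb6a on the opposite strand, which had 547 to 733 counts.

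Gsk3b, a kinase that marks Mcl1 for degradation, was at 217.5 and 173.6 CPM in naive, 102.1 and 108.9 CPM at 1 week and 150.4 and 141.5 CPM at 3 weeks. It fell by 0.89 on the log2 scale at 1 week (SE 0.128, adjusted p = 0.00175). At 3 weeks it was lower than naive by 0.42 (log2 -0.42, adjusted p = 0.0312) and higher than at 1 week (log2 0.47, adjusted p = 0.0186). The former was lost without naive replicate 1 or either 3-week library (0.0786 to 0.205) and the latter without either 1-week library or week 3 replicate 1 (0.0813 to 0.151). Usp9x, a deubiquitinase that stabilises Mcl1, was higher at 3 weeks than at 1 week (log2 0.58, adjusted p = 0.0157), a call lost without either 1-week library or week 3 replicate 1 (0.0809 to 0.123).

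Pim1, a survival kinase that phosphorylates Bad, was at 51.4 and 71.0 CPM in naive, 64.5 and 67.1 CPM at 1 week and 122.5 and 92.6 CPM at 3 weeks. It rose by log2 0.81 over naive (adjusted p = 0.00358, but 0.0709 without naive replicate 1) and by 0.71 over 1 week (adjusted p = 0.00771, lost without either 1-week library or week 3 replicate 1 at 0.0503 to 0.0724). The death receptor gene Fas was lower at 3 weeks, at 62.7 and 60.3 CPM against 76.8 and 106.9 CPM in naive (log2 -0.58, adjusted p = 0.0294), which was lost without naive replicate 2 or either 3-week library (0.0765 to 0.285).

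**Figure D5:**
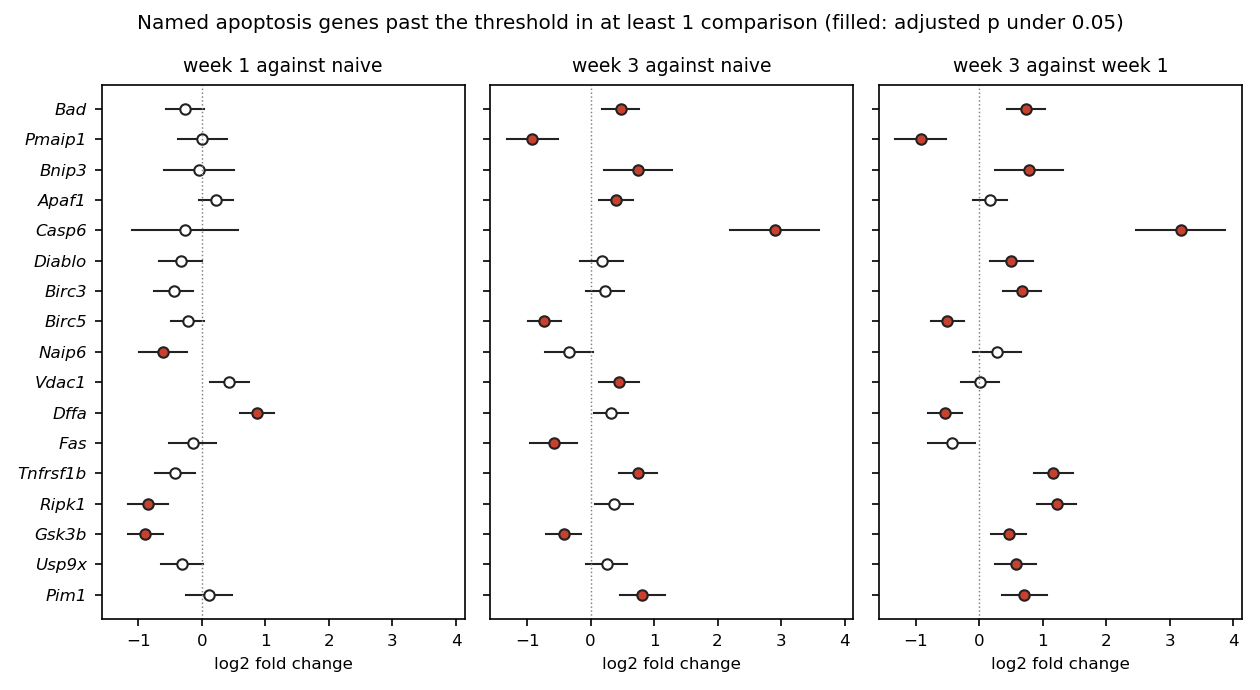
Log2 fold changes from edgeR with 95% intervals are shown for the named genes of the wider pathway that passed the threshold in at least 1 of the 3 comparisons, with a panel for each comparison and filled points where the adjusted p was under 0.05. Casp6 lies farthest from 0 in both 3-week panels, at 2.90 and 3.17, and Gsk3b and Ripk1 lie to the left at 1 week.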

How the data were processed

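RNA of Ly6G-positive bone marrow cells was measured in 6 libraries. The authors aligned single-end reads to mm10 and the Ensembl transcriptome (RSEM is given as 1.2.31 in the submitters' processing notes, which also name Bowtie2 and DESeq2) and deposited an expected count for each gene and library, in whole numbers and not normalized. Groups came from the labels.

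Identifiers were matched to GENCODE M21 on GRCm38 (37570 of 38887), which also gave positions and exon lengths. Promoter windows came from RefSeq GRCm38.p6. Genes were kept by filterByExpr, at about 0.748 CPM in 2 libraries, and tested with edgeR 4.0.16 in R 4.3.3 (TMM, glmQLFit, glmQLFTest, 6 libraries in 1 model, group only). A standard error is the log2 fold change divided by the root of F, and intervals are 95%. DESeq2 1.42.0, other scalings, filters, thresholds and groupings were alternatives, and the steps were tested on simulated data. There, 145 genes were called at 3 weeks against naive. Of these, 130 were among the 200 genes given a 2-fold change (65% of the 200), and the rest were unchanged. The 200 were drawn from genes with more counts, so this share does not cover low-count genes such as Bax. With no gene changed, 2 were called. A gene not called may therefore still have changed, and a called gene may be unchanged.

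The genes named are all members, up to 6 called genes per pathway list and comparison with the smallest adjusted p, and the 5 genes most like Mcl1. Genes and lists were chosen with earlier results of these data known. Precision per gene is not set by the 11994158 to 14127919 counts per library alone. It also depends on the spread between the 2 libraries of a group, which exceeded counting error in naive, 1-week and 3-week mice. Mcl1, with 10551 to 21060 counts per library, still had standard errors of 0.110 to 0.111 on the log2 scale. Nothing beyond the mouse and replicate labels describes how replicates were collected, so p-values measure only the spread between these libraries, which may be partly technical. The value of 3 counts covers counting error only. A gene of the downstream list is counted in that list but not reported here by name.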

Additional observations from a re-analysis of the deposited data

Results flagged for a closer look

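In 5 of the 9 measured BCL2-family genes the effect at 3 weeks differed from that at 1 week in the direct test (edgeR, adjusted p under 0.05). Of all tested genes, 22.5% were called in this test. The log2 difference between 3 weeks and 1 week was 0.93 for Mcl1 (adjusted p = 7.21e-05), 1.19 for Bcl2l1 (1.40e-04) and -1.23 for Bcl2a1b (1.78e-04). For these genes both 3-week libraries lay on 1 side of both 1-week libraries. The log2 difference was 0.45 for Bak1 (0.0464) and 0.72 for Bcl2l11 (0.0354), again without overlap between the libraries. The last 2 calls depend on single libraries. Of all tested genes, 63.8% did not overlap in this comparison. The 5 genes were chosen by the test on these same libraries, so their separation adds no support. That choice also favours opposite signs against naive at the 2 time points. Mcl1, Bcl2l1, Bak1 and Bcl2l11 were below their naive means at 1 week and above them at 3 weeks, and Bcl2a1b the reverse (for Bcl2l11 the 3-week difference from naive changed sign with library totals as the scale), with the differences from naive past the threshold only at 3 weeks, for Mcl1, Bcl2l1 and Bcl2a1b.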

How the results depend on the processing

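Over the BCL2-family genes, 416 gene values under alternatives kept their direction and their side of the threshold. A call was lost in 27 and gained in 2, and 12 changed sign, none of which was called. The 416 include genes not called in the main test, so they say little of how stable the calls are. Under 17 alternatives, the call at 3 weeks against 1 week was lost in 11 for Bak1 and in 9 for Bcl2l11. Each other member call was lost in 1 or 2. With each library left out in turn, the count of members called at 3 weeks against 1 week was 2 to 4 higher (2 without week 1 replicate 2 or week 3 replicate 2) and 1 lower. At 3 weeks against naive it was 2 higher and 0 to 1 lower (0 without week 3 replicate 1), and at 1 week 0. The 4 members higher at 3 weeks than at 1 week became 2 with library totals as the scale, with DESeq2 on all libraries or on the groups compared, and at an adjusted p under 0.01. Library totals moved the median of all genes from -0.02 to -0.22, and Bak1 (0.25, adjusted p = 0.244) and Bcl2l11 (0.51, adjusted p = 0.136) were lost there. With the study's rule of a change over 5-fold under DESeq2, 0 members were called in any comparison. At 1 week an adjusted p under 0.1 gave 1 member higher (Bcl2a1b), and testing without the filter on low counts gave 1 lower (Bcl2l11, adjusted p = 0.026). The 5, 12 and 13 pathway genes called ranged from 2 to 6, 6 to 10 and 7 to 14 with a library left out. At 1 week the count fell from 5 to 3 without naive replicate 1 or week 1 replicate 1 and to 2 without week 1 replicate 2. At 3 weeks against naive it was 6 without naive replicate 1 or week 3 replicate 2 and 7 without week 3 replicate 1, and against 1 week 7 without week 1 replicate 2 or week 3 replicate 1. Over 5-fold there were 0, 1 and 1, at an adjusted p under 0.01 there were 3 at 1 week and 5 at 3 weeks against naive, under 0.1 there were 8 at 1 week and 20 at 3 weeks against 1 week, and DESeq2 on the groups compared gave 7 at 3 weeks against naive. The cause of these shifts was not tested. Signs turned for Bax at 3 weeks against naive (-0.50 to 0.42 with a library left out, above 0 without naive replicate 2 or week 3 replicate 2), for Bcl2 (-0.40 to 0.27, above 0 without naive replicate 1 or week 3 replicate 2) and for Bbc3 (-0.41 to 0.12, above 0 without naive replicate 2 or week 3 replicate 1). Bbc3 at 1 week ranged from -0.13 to 0.36, below 0 without naive replicate 1 or week 1 replicate 2. Bcl2l11 at 3 weeks against naive turned to -0.032 with library totals and ranged from -0.14 to 0.35 with a library left out, below 0 without naive replicate 2 or week 3 replicate 2. Bid at 3 weeks against 1 week turned to -0.064 with library totals. Equal replicate numbers did not pair the libraries (correlations of deviations 0.0101 to 0.0379). With the replicate number as a block, 959, 2559 and 2709 genes were called in place of 979, 2626 and 2759, and Bak1 at 3 weeks against 1 week (0.45, adjusted p = 0.0538) was the only member call to change. A planned sum over the Bcl2a1 copies was not run, since Bcl2a1a and Bcl2a1d had no matched identifier and Bcl2a1c was at 0 counts.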
